A study of Mus musculus with 8 samples.

Results

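The hearts described here are ventricles of mouse pups of the C57BL/6 strain, taken at postnatal day 7, that carried altered alleles of 3 genes, set against wild type ventricles of the same age and strain. The triple mutant pups carried altered Mkl2, Myh7 and Nkx2-5, as known from the study of inherited heart disease with an NKX2-5 modifier. The study's design text sets this comparison as the one between diseased and normal hearts. There were 3 triple mutant and 2 wild type samples, and a double mutant group of 3 samples with altered Mkl2 and Myh7 but not Nkx2-5 is used only for side-by-side values. Either mutant group is set against the same 2 wild type samples, so a gene's double and triple mutant values are not independent evidence against wild type. The labels give neither the exact alleles nor the sex of the pups. The deposited data hold 1 FPKM (a count of RNA fragments scaled to transcript length and library size) per gene and group, the authors' own estimate, so no value below has a replicate error of its own and the depth is unknown. Where a gene is given with 2 values and no group is named, the first is wild type and the second triple mutant.

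Genes entered the description when the authors had tested them, when no other gene shared their locus, and when their FPKM was at least 5 in either group. Of 37982 genes listed, 12986 were tested for triple mutant against wild type. Of these, 5917 lay in loci shared by several genes and were set aside, and 1812 of the remaining 7069 lay under the FPKM minimum, which left 5257 genes. A further 708 genes were marked by the authors' program as too deeply covered to estimate. They are listed at 0 in both groups (612 genes), in the triple mutant only (93) or in wild type only (3), so they have no fold change here, and many of the most abundant heart muscle genes are among them.

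The ventricle of the newborn mouse is in transition. In the days around this age cardiomyocytes leave the cell cycle, replace fetal sarcomere isoforms by adult ones and fill with mitochondria that burn fatty acids. Nkx2-5 is a homeodomain transcription factor of the heart muscle lineage, the protein of Mkl2 is a myocardin-related transcription factor (MRTF) that works with serum response factor (SRF), and Myh7 encodes the beta myosin heavy chain, the main myosin of the fetal mouse ventricle.

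Several nuclear genes of energy metabolism, some sarcomere and stress genes of heart muscle and 2 mast cell proteases stood higher in the triple mutant, and the lower genes included Smyd3, Gli2, Zbtb16, Ppara and the elastin gene. Of the 5257 genes, 133 (2.53%) had a q value under 0.05 in the authors' test and are called changed here, 106 of them higher (2.02%) and 27 lower (0.514%). Over all 12986 tested genes the share was 1.52%. The changes were of moderate size. The median called gene was 1.57-fold higher or 1.59-fold lower by the ratio of the group FPKM values, 9 of the higher and 3 of the lower genes passed 2-fold, and the smallest called change was 1.36-fold. Of those past 2-fold, Smyd3, Gli2 and Gm4169 met the FPKM minimum in wild type only. Cpa3, S100a9, Cma1, Iigp1, Irx1 and Ddx3y met it in the triple mutant only. Such genes entered only through their higher group, so their number is no evidence of large changes. Eln and Star are smaller falls of that kind. Most genes hardly differed, with a median log2 ratio of 0.02 over all 5257, quartiles of -0.15 and 0.20, and 3654 genes within 1.2-fold. Of the 5257, 2789 stood higher in the triple mutant and 2468 lower, whatever the size of the difference. The counts of higher, lower and called genes given for each list below are to be read beside these and the 2.53% called. An unadjusted p under 0.05 in the authors' test was common, in 564 genes higher and 297 lower of the 5257. Counts at that threshold given for lists below are to be read beside these 564 and 297.

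**Figure D1:**
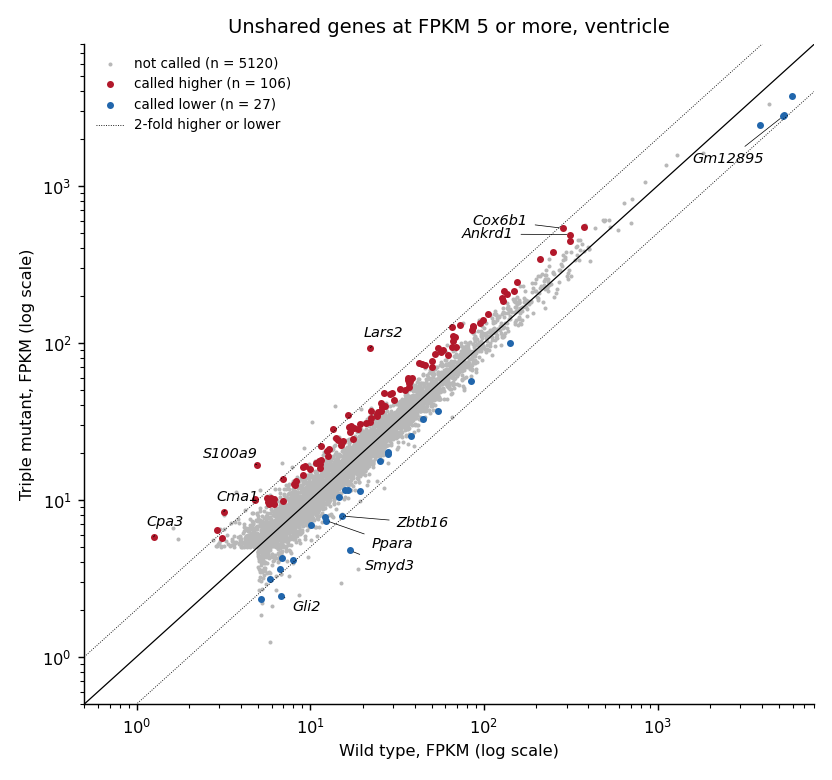
Group FPKM of the 5253 genes above 0 in both groups, wild type on the horizontal and triple mutant on the vertical axis, both on log scales. Red points are the 106 genes called higher, blue points the 27 called lower, grey points were not called, the solid line marks equal levels and the dotted lines a 2-fold difference. Most called genes lie between the dotted lines.

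The calls rest on the authors' Cuffdiff test, and its deposited columns do not match each other in a simple way. Read as a normal deviate, the deposited test statistic is smaller than the deposited p value would need, by a median ratio of 0.571 over the 3190 genes with p values in the middle range. Among the 133 called genes, 18 had a statistic under 1.96 in size. They include Ppara, at -1.6273 the smallest in size of all calls, and Gli2 at -1.6312. With p values taken from the statistic instead and adjusted within this comparison, only Cpa3 and Lars2 were called. This check was added after the data were seen and its cause was not tested. The lowest deposited p value in this comparison was 5e-05, in 72 tested genes. Its q value, 0.0066, is the lowest possible here and is shared by 53 of the called genes, so it does not rank them. The counts below use the p values as the authors deposited them.

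The tissue itself could be checked only in part, and in bulk samples fewer cells of a type cannot be told apart from less RNA per cell. Of 14 cardiomyocyte markers 12 are listed at 0 in at least 1 group by the mark for too deep coverage, and those with a value in both groups were Nkx2-5 and Corin (33.8 and 28.9, in a shared locus). Of 12 atrial muscle markers, Sln and Myl7 were near 0, at 0.190 and 0.149 and at 0.130 and 0.136. Others of that list were not, among them Nppa at 919 and 829 in a shared locus and Nr2f2 at 47.5 and 49.2. The 12 markers summed to 1019 and 941. Whether the samples held atrial muscle was not tested. Markers of thymus and lung summed to 1.61 and 1.17 over 10 genes, and the 15 lymphocyte markers to 3.31 and 2.83. The Y-linked genes differed between groups. Ddx3y rose from 4.82 to 10.02 (q = 0.0066 per the authors' deposited table), and Uty stood at 5.61 and 10.5 and Eif2s3y at 10.2 and 31.1, neither called. In the double mutant these genes stood at 13.99, 15.2 and 41.1. Xist, transcribed from the inactive X, is listed at 0 in wild type by the same mark and had 88.2 in triple against 1.21 in double mutants, in a shared locus. The labels give no sex, so a different share of males in the groups and the genotype cannot be told apart in any comparison here.

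The mutated genes were checked against the labels, although an altered allele need not change the level of its transcript. Nkx2-5 (chr17:26975609-26978510 in mm9, the build of the deposited table and of all gene positions below) had an FPKM of 43.6 in wild type ventricles, 53.1 in double mutants and 55.2 in triple mutants. It was not called (q = 0.284 per the authors' deposited table). Mkl2 lies in a shared locus and stood at 30.9, 30.6 and 26.0 in the same order, with q = 0.879 for triple mutant against wild type per the authors' deposited table. Myh7 is listed at 0 in all groups. Within 5 Mb of Nkx2-5, 2 of 60 genes were called, the cell cycle inhibitor gene Cdkn1a and the mitochondrial sulfhydryl oxidase gene Gfer, both higher. None of 25 genes near Mkl2 was called, and near Myh7 2 of 30 were: Cma1 was higher and the RNA gene AC027184.1 lower. Over all 5257 genes 2.53% were called, and counts this small cannot set any of these windows apart from that share.

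Heart muscle genes with calls came from the sarcomere, the Z disc and the stress programme. Synpo2l (chr14:21478168-21487576), an actin-associated protein of the Z disc, rose from an FPKM of 131 to 214 (1.64-fold, q = 0.0066 per the authors' deposited table). The leiomodins Lmod2 and Lmod3, which nucleate and lengthen thin filaments, rose from 127 to 192 and from 38.7 to 60.0. Ankrd1 (chr19:36186455-36194334), a stretch-responsive ankyrin repeat protein, rose from 315 to 489 (q = 0.015 per the authors' deposited table). Tnni1, the slow skeletal troponin I of the fetal heart, rose from 155 to 244. Outside the lists, the heart-restricted leucine-rich repeat gene Lrrc10 rose from 85.4 to 121 and the muscle gene Dusp27 from 26.9 to 39.6. The promoters of 4 of these risen genes are shown because each holds a motif of a cardiac factor within 250 bases before a start. Synpo2l has 2 such windows in RefSeq, and 1 of them, printed here, holds the motif. The sequences are RefSeq promoter windows on GRCm38.p6, read 5′ to 3′ on the gene's strand, and capitals mark the motif named on each line.
Lrrc10, TNAAGTG, an NKX2-5 type motif, chr10:117045091-117045340, plus strand: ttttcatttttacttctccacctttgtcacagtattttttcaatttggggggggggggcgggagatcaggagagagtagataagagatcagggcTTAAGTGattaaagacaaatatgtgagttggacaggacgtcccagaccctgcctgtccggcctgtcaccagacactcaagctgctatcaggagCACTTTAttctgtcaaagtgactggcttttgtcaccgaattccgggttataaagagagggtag
Dusp27, TNAAGTG, chr1:166127899-166128148, minus strand: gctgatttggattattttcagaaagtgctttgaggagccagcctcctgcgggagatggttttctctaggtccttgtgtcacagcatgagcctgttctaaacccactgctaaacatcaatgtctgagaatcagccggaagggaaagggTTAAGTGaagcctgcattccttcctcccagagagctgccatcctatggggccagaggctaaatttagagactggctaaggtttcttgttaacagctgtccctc
Ankrd1, CATTCC, a TEAD type motif, chr19:36119845-36120094, minus strand: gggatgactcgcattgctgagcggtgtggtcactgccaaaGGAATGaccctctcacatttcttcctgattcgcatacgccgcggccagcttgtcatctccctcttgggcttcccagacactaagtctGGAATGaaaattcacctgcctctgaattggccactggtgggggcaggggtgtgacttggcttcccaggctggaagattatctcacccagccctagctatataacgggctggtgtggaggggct
Synpo2l, MEF2 box, chr14:20668355-20668604, minus strand: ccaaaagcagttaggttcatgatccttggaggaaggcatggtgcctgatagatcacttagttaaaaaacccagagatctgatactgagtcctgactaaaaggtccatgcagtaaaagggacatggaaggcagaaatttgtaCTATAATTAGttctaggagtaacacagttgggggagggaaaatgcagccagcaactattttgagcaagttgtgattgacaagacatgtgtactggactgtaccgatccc

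How common each motif was among promoters was counted on both strands, overlapping matches included. A gene counts when any of its windows holds the motif, so shares of genes and shares of windows are not like for like. Genes and windows on chromosome 18 were left out of these counts. TNAAGTG occurred in 12 of 78 higher genes with a promoter window (15.4%), in 1 of 14 lower genes, in 8.36% of the 4017 genes with a window and in 10.1% of all 32851 windows. The 12 were Antxr2, C1qbp, Dnajc9, Dusp27, Hmmr, Lars2, Lrrc10, Lrrc4b, Pttg1, Tcf7l2, Tmem218 and Trim13. CATTCC was in 11.5% of the higher genes, 11.8% of the 4017 and 12.6% of all windows. The MEF2 box was in 2 of the 78, Dusp27 and Synpo2l, in 0.647% of the 4017 and in 0.508% of all windows. The CArG box, the motif of SRF, was in 1.27% of the 4017 genes and in none of the 92 called genes with a window. AAGGTCA, bound by estrogen-related receptors, was in none of the 92 either, in 2.84% of the 4017 and in 4.08% of all windows. CCGGAAG, an ETS type motif, was in 15.4% of the higher genes, 16.2% of the 4017 and 6.91% of all windows. A match in these letters shows no binding, and a window without one says nothing of the factor.

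The fetal and stress programme of cardiomyocytes had 10 genes to describe out of 25 listed. All 10 stood higher in the triple mutant, with a median log2 ratio of 0.33 against 0.02 over all 5257 genes, and Ankrd1 and Tnni1 were called. Over all 22 genes of the list with a value 15 stood higher and 7 lower, and the median fell to 0.18 with shared loci kept. Nppa, the atrial natriuretic peptide gene and the most abundant of the 22, lies in a shared locus and was not called at 919 and 829, with 505 in the double mutant. The natriuretic peptide gene Nppb stood at 150 and 158, and the muscle LIM protein gene Csrp3 at 73.9 and 99.3. Smooth muscle actin, Acta2, which the immature heart also makes, stood at 199 and 254. In the sarcomere and Z disc list 18 entries, among them Ttn, Myh6 and Actc1, are listed at 0 in at least 1 group. Of the 10 genes left 8 stood higher, and the 3 called were Synpo2l, Lmod2 and Lmod3. Cryab, the small chaperone of desmin and titin, was not called at 365 and 428. Tcap, the gene of the Z disc protein telethonin, stood at 68.9 and 70.4.

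SRF and MRTF targets, the genes that Mkl2 acts on with SRF, held 1 call. Of 13 genes 7 stood higher and 6 lower, the median log2 ratio was 0.01 (-0.01 when centred on the median of all genes), and Ankrd1 was the gene called. Filamin A, Flna, stood at 162 and 134, the myosin light chain gene Myl9 at 196 and 242, and Fos at 8.19 and 11.4.

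Among cardiac transcription factors, 2 of 14 were called, both higher. Irx5 (chr8:94881695-94885353), an Iroquois homeodomain factor that shapes the repolarization gradient of the ventricular wall, rose from 5.64 to 10.3 (1.83-fold, q = 0.0066 per the authors' deposited table). Tbx5, a T-box partner of Nkx2-5, rose from 6.96 to 9.83 (q = 0.044 per the authors' deposited table), a call that ended at q = 0.0535 when q was recomputed within this comparison. A related Iroquois gene outside the list, Irx1, rose from 4.83 to 10.1, and its double mutant value of 13.9 was higher still. Gata4 stood at 80.6 and 93.1, Mef2c at 77.1 and 89.2, Tbx20 at 109 and 95.0 and Hand2 at 58.6 and 59.4, none of them called. Tcf7l2, a nuclear partner of beta-catenin, rose from 50.5 to 76.9 (q = 0.0496 per the authors' deposited table), also a call that ended within the comparison, at 0.059.

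No ion channel or calcium handling gene was called among 15 (median log2 ratio 0.04), by the authors' Cuffdiff test, and 2 had an unadjusted p under 0.05. The junctophilin gene Jph2 stood at 82.0 and 87.1 and the potassium channel subunit gene Kcne1 at 234 and 244. Ryr2, Atp2a2 and Pln are listed at 0 in at least 1 group and were not compared. Outside the list, Camk2a, a calcium and calmodulin dependent kinase, rose from 25.9 to 39.0, and Agtr1a, the receptor of angiotensin II, rose from 17.2 to 29.3 (1.70-fold). The Agtr1a call had q = 0.0066 and the Camk2a call q = 0.0458 per the authors' deposited table, and the second ended within the comparison at 0.0541.

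**Figure D2:**
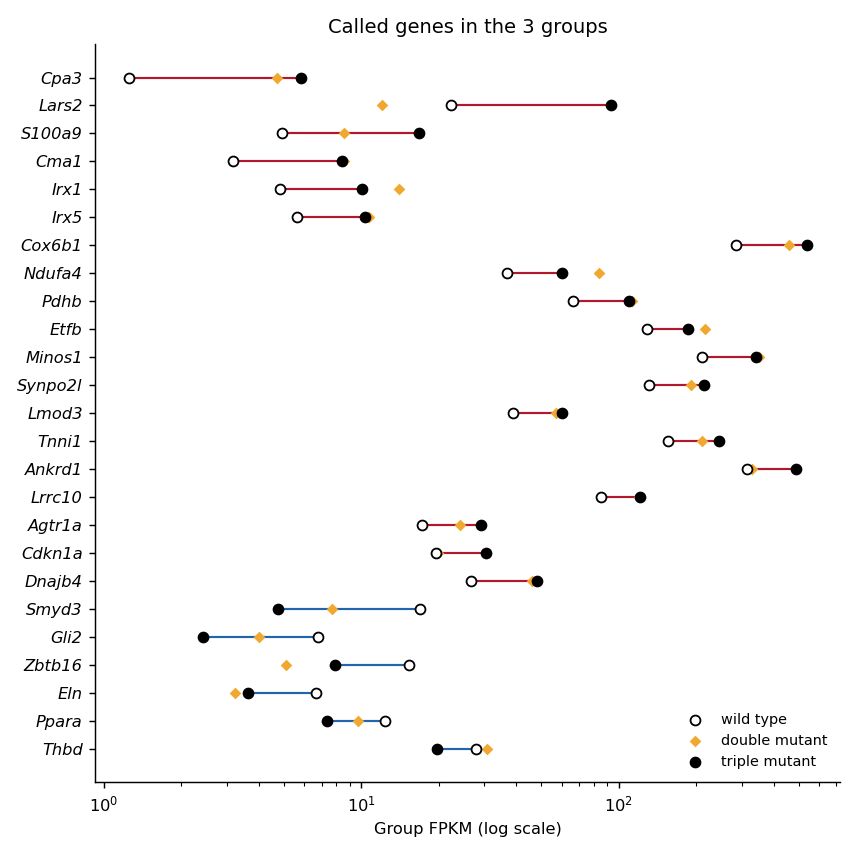
Group FPKM of 25 called genes on a log scale, with open circles for wild type, diamonds for the double mutant and filled circles for the triple mutant, each the authors' single value for the group. Lines join wild type to triple mutant, red where called higher and blue where called lower. For Lars2 the diamond lies left of both circles, at 12.0 against 22.2 and 92.8.

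Most nuclear genes of the respiratory chain stood higher, and a few were called. Complex I, which passes electrons from NADH to ubiquinone, had 26 genes, of which 22 stood higher with a median log2 ratio of 0.23. The called subunits were Ndufa4 (36.8 to 59.9, a subunit also assigned to cytochrome oxidase), Ndufs4 (86.2 to 126) and Ndufa10 (106 to 153), all higher. Complexes II to V had 23 genes, 17 of them higher with a median of 0.26. Their only call was Cox6b1 (chr7:31401993-31411170), a cytochrome oxidase subunit, which rose from 286 to 536 (1.88-fold, q = 0.0066 per the authors' deposited table). Cox8b, the muscle isoform of another oxidase subunit, stood at 848 and 1052 without a call. Both lists stood above wild type in the double mutant too, by FPKM summed over their genes with a value. In wild type, double and triple mutants the sums were 3140, 4148 and 3732 for complex I. For complexes II to V they were 7205, 10041 and 8895. The shift was not uniform, since Ndufs5 stood at 44.0 and 33.2 and Sdhb, the iron-sulfur subunit of complex II, at 25.2 and 22.6. In the opposite direction to the lists, Cox7a2l, which joins respiratory complexes into supercomplexes, fell from 140 to 99.6 (q = 0.0214 per the authors' deposited table).

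The pathways that feed the chain had few calls. In the citric acid cycle list, 1 of 11 was called: Pdhb, the beta subunit of pyruvate dehydrogenase, rose from 66.3 to 110 (1.66-fold, q = 0.0066 per the authors' deposited table). Idh3a, a subunit of isocitrate dehydrogenase, stood at 295 and 350, and Mdh2, malate dehydrogenase, at 154 and 181. Of 21 fatty acid oxidation genes 14 stood higher (median 0.06, or 0.01 with shared loci kept) and 4 were called. Etfb, which carries electrons from acyl-CoA dehydrogenases, rose from 128 to 186, and the carnitine carrier gene Slc25a20 from 69.3 to 94.5. Ppara (chr15:85565413-85633249), the nuclear receptor that drives fatty acid oxidation genes, fell from 12.3 to 7.37 (1.67-fold lower, q = 0.0244 per the authors' deposited table), while the carnitine palmitoyltransferase genes Cpt2 (284 and 361) and Cpt1a (37.3 and 36.2) were not called. In glycolysis 2 of 12 were called. The muscle phosphoglycerate mutase Pgam2 rose from 379 to 550, and Pkm2, pyruvate kinase, rose from 311 to 445 (q = 0.0458 per the authors' deposited table, ended within the comparison at 0.0541).

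Several called genes outside every list also encode mitochondrial proteins. They were picked out after their values were seen, so their number is no evidence for the organelle as a group. Minos1, Apoo and Apool encode subunits of the complex that shapes the cristae of the inner membrane. Minos1 rose from 210 to 341, Apoo from 35.0 to 50.2 and Apool from 36.9 to 52.5. Aifm1, a flavoprotein of the intermembrane space that also releases a death signal, rose from 52.2 to 85.2. Tmem126b, an assembly factor of complex I, rose from 24.1 to 34.3, and Gfer, which oxidizes imported proteins, from 14.5 to 24.1. Acot13, an acyl-CoA thioesterase, rose from 251 to 380, Mcee, a racemase in propionate breakdown, from 54.2 to 92.0, and Mtfp1, a protein of mitochondrial fission, from 17.1 to 29.5. The mitochondrial ribosomal protein genes Mrps5 (65.2 to 125) and Mrps30 (18.9 to 28.5) rose as well. In these genes the double mutant stood above wild type too, for example at 349 for Minos1, 86.9 for Aifm1 and 110 for Mcee.

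Lars2 (chr9:123276058-123371782), the mitochondrial leucyl-tRNA synthetase, rose from 22.2 to 92.8 (4.18-fold, the largest called rise after Cpa3, q = 0.0066 per the authors' deposited table). Its double mutant value was 12.0, lower than wild type. None of these other synthetases of the mitochondrial translation list was called: Yars2 stood at 11.2 and 14.1, Fars2 at 42.8 and 47.2, Wars2 at 7.37 and 6.72 and Tars2 at 5.55 and 4.83. Over the 18 genes of that list 13 stood higher with a median of 0.10, and Lars2 was its only call. The 20 cytosolic ribosomal protein genes had a median of -0.09, 6 higher and 14 lower, and none was called by the authors' test, 3 having an unadjusted p under 0.05.

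**Figure D3:**
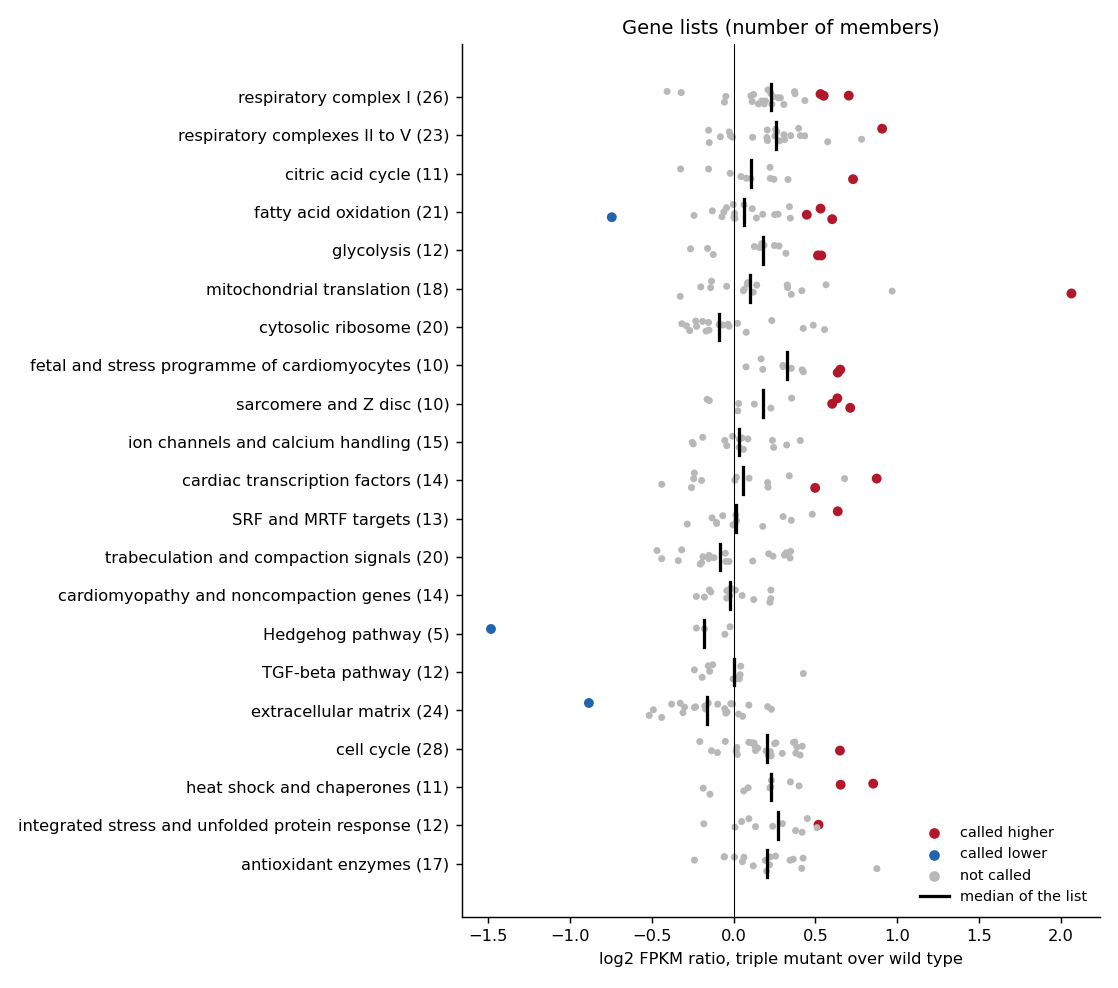
Log2 ratio of group FPKM, triple mutant over wild type, for the described genes of 21 lists, with the number of genes in parentheses. Each point is a gene, red where called higher, blue where called lower and grey where not called, and the black bar is the list's median. Both respiratory chain medians lie right of 0, at 0.23 and 0.26, and the extracellular matrix median left of it, at -0.16.

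Short transcripts and abundant genes held more of the higher calls. Over 5 bins of equal size by transcript length (GENCODE M21, by Ensembl ID), 44, 33, 14, 13 and 2 genes were called higher from the shortest to the longest bin, while the lower calls numbered 5, 3, 5, 6 and 5. The median log2 ratio went from 0.14 in the shortest bin to -0.05 in the longest. Of the complex I genes 22 of 26 lie in the shortest bin (up to 1853 bases), as do 18 of the 23 genes of complexes II to V. The cytosolic ribosomal protein genes are as short, with 17 of 20 in that bin, and their median was -0.09. By level, the share called rose from 1.05% at an FPKM of 5 to 10 through 1.88%, 2.57% and 4.83% to 9.89% at 100 or more. At an FPKM of 100 or more the 201 genes in the shorter part of the length range had a median of 0.18 and 20 higher calls, against 0.03 and 3 in the 78 longer ones. The part of length or level in the rise of any list was not tested.

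**Figure D4:**
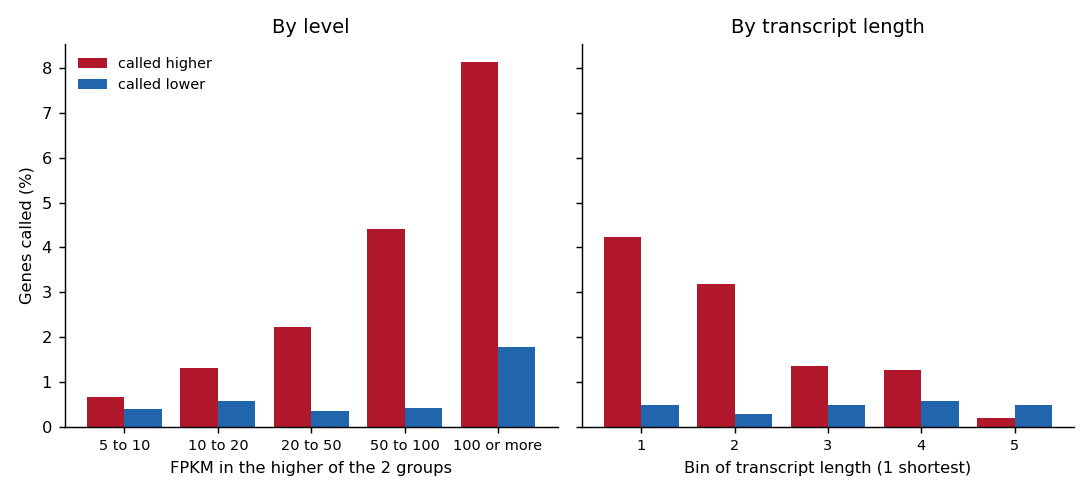
Percent of genes called higher (red) and lower (blue), by FPKM in the higher of the 2 groups on the left and by 5 bins of transcript length on the right. The share called higher climbs to 8.13% at an FPKM of 100 or more and drops from 4.24% in the shortest to 0.193% in the longest bin, while the share called lower is highest at 1.77%, in the genes at 100 or more.

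Cell cycle genes stood slightly higher. Of 28 genes 24 were higher, with a median log2 ratio of 0.21, and the only call was Cdkn1a, the p21 inhibitor that halts the cycle, which rose from 19.4 to 30.5 (q = 0.038 per the authors' deposited table). No other gene of the list was called, and 6 of the 28, all higher, had an unadjusted p under 0.05. Ccnb1 stood at 26.9 and 31.4, Birc5 at 38.2 and 51.0, Kif11 at 13.9 and 18.2 and Cdk1 at 13.4 and 13.6. Some cell division genes outside the list were called: the securin gene Pttg1 rose from 16.5 to 34.8 (2.11-fold), Hmmr, a spindle protein, from 17.9 to 28.7, Cdca3, a trigger of mitotic entry, from 29.6 to 47.7, and the tubulin gene Tuba1b from 136 to 204. Hmmr, Cdca3 and Tuba1b were not higher in the double mutant, at 15.8, 26.5 and 132, whereas Pttg1 was, at 39.5.

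Chaperone genes rose at a few members. In the heat shock list 9 of 11 stood higher (median 0.23). Hspb1, a small heat shock protein, rose from 36.7 to 57.8, and Dnajb4, a cochaperone of the Hsp40 family, from 26.6 to 48.0 (1.81-fold, q = 0.0066 per the authors' deposited table). Of 12 genes of the unfolded protein response and the integrated stress response 11 stood higher (median 0.27), and Calr, the calcium-binding chaperone calreticulin, rose from 150 to 215 (q = 0.0458 per the authors' deposited table, ended within the comparison at 0.0541). Hspa5, the main chaperone of the endoplasmic reticulum, stood at 238 and 339 without a call, and Atf4 at 111 and 119. Of 17 antioxidant enzyme genes 14 stood higher (median 0.20), none was called by the authors' test and 4 had an unadjusted p under 0.05. Gpx4, which reduces lipid peroxides, had the largest ratio of them at 5.85 and 10.7.

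Fewer genes fell. The largest called fall was in Smyd3 (chr1:180882091-181448172), a lysine methyltransferase, from 16.9 to 4.76 (3.56-fold lower, q = 0.0066 per the authors' deposited table), with 7.68 in the double mutant. Gli2 (chr1:120730709-120950196), the transcription factor at the end of the Hedgehog pathway, fell from 6.80 to 2.43 (2.79-fold lower, q = 0.0244 per the authors' deposited table), with 4.01 in the double mutant. The other 4 genes of the pathway that could be described were not called: the repressor Gli3 stood at 6.10 and 5.21, the receptor Ptch1, itself a target of the pathway, at 9.77 and 9.62, Sufu at 5.46 and 4.83 and Gas1 at 26.8 and 25.9. The ligand genes were not tested. Zbtb16 (chr9:48462416-48644050), a zinc finger factor induced by glucocorticoids, fell from 15.3 to 7.88 (q = 0.0066 per the authors' deposited table), and was lower still in the double mutant at 5.09. Of the 10 glucocorticoid responsive genes described, Zbtb16 included, 7 stood higher and 3 lower, and Cdkn1a, which the cell cycle list also holds, was the other call. Tsc22d3 stood at 35.8 and 42.2 and Sgk1 at 34.4 and 23.2, neither called. Star, which moves cholesterol into mitochondria, fell from 5.85 to 3.12, and Scarb2, a lysosomal membrane receptor, from 54.6 to 36.5.

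Some falls are uncertain as gene measurements. The call under the symbol Hdac4 (7.99 to 4.14) belongs to a separate short identifier, ENSMUSG00000073617, and the gene's long identifier, ENSMUSG00000026313, lies in a shared locus and was not called, at 6.07 and 5.33. Gm12895 and Gm12896, processed pseudogenes with near-equal values (5278 to 2771 and 5334 to 2811), may share reads with each other and with further copies. U1 (3879 to 2435) is one of many copies of a spliceosomal RNA gene. AC027184.1 (5956 to 3749) is named Rpph1 in GENCODE M21, the RNA of ribonuclease P.

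Matrix genes tended lower. Of 24 genes of the extracellular matrix list 19 stood lower with a median log2 ratio of -0.16 (-0.08 at a minimum of 1), and 1 was called: Eln (chr5:135179651-135223111), which encodes elastin, fell from 6.67 to 3.62 (1.84-fold lower, q = 0.015 per the authors' deposited table), with 3.24 in the double mutant. Lox and Loxl1, which crosslink elastin and collagen, stood at 20.04 and 15.99 and at 41.9 and 29.8, and the fibulin gene Fbln2 at 125 and 96.4, none called. Col1a2, a fibrillar collagen gene, stood at 87.3 and 84.1 and Dcn, decorin, at 117 and 109. None of 12 genes of the TGF-beta pathway was called by the authors' test, 1 had an unadjusted p under 0.05, and the median of 0.00 changed sign with the minimum, the shared loci and the centring.

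Signals of trabeculation and compaction, the steps that build the ventricular wall, gave no call among 20 genes by the authors' test (median -0.08), and 5 had an unadjusted p under 0.05. The Notch effectors Hey1 and Hey2 stood at 9.81 and 7.10 and at 19.8 and 24.6, the ligand gene Jag1 at 12.2 and 11.0, and Vegfa at 188 and 239. The list of cardiomyopathy and noncompaction genes had 14 genes, a median of -0.02 and no call by the authors' test, and none had an unadjusted p under 0.05. Its largest log2 ratios in either direction were 0.23 and -0.23, for Cryab and Lmna.

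Markers of the other cells of the ventricle were examined as lists. Some mast cell protease genes were called higher. Cpa3 (chr3:20115516-20142080), the mast cell carboxypeptidase, rose from 1.25 to 5.80 (4.63-fold, q = 0.0066 per the authors' deposited table) and the chymase Cma1 (chr14:56560290-56563498) from 3.18 to 8.39 (2.64-fold, q = 0.0066 per the authors' deposited table), with 4.70 and 8.55 in the double mutant. Mcpt4, another mast cell protease, was called under the FPKM minimum, at 0.945 and 3.90, and the tryptase gene Tpsb2 was not called at 1.22 and 3.56. Cpa3, Cma1 and the neutrophil genes S100a8 and S100a9 reached the FPKM minimum in the triple mutant and not in wild type. Over all 13 mast cell markers 9 stood higher and 3 lower, and they summed to an FPKM of 33.0 in wild type, with 55.4 and 51.3 in double and triple mutants. The receptor gene Kit, which other cells also make, stood at 8.66 and 7.34, and Fcer1a, the mast cell receptor of immunoglobulin E, at 0 and 0.0521. S100a9 (chr3:90496554-90499643), a calprotectin subunit of neutrophils, rose from 4.93 to 16.7 (3.40-fold, q = 0.0066 per the authors' deposited table), with 8.57 in the double mutant, and its partner S100a8 stood at 3.62 and 5.42. Over all 13 neutrophil markers 9 stood higher, 1 lower and 3 (Mpo, Elane and Camp) at 0 in both groups, and they summed to an FPKM of 9.58 in wild type, with 13.2 and 28.1 in double and triple mutants. Apart from the calprotectin genes their levels were low, with Ngp at 0.449 and 2.43, Mmp9 at 0.315 and 1.03, Retnlg at 0 and 0.813 and Lcn2 at 0.0984 and 0.761. Of 17 macrophage markers 11 stood higher and 6 lower, and they summed to 61.8 and 63.5. The 4 that could be described had a median of -0.13 (-0.02 at a minimum of 1) and no call, with C1qa at 12.1 and 11.1 and Lyz2 at 8.53 and 9.89.

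Endothelial markers stood lower, but none was called. Of the 14 endothelial genes described 12 stood lower, with a median log2 ratio of -0.32, no call by the authors' test and 7 lower at an unadjusted p under 0.05. Over the whole list of 20, 17 stood lower and FPKM summed to 1249 in wild type against 1248 in double and 1047 in triple mutants. The vascular factor gene Sox18 stood at 64.8 and 47.0, the receptor gene Flt1 at 32.1 and 23.5, Esam at 72.2 and 53.7 and Cdh5 at 204 and 188, while the factor gene Erg stood at 25.7 and 28.1. A pair of genes of endothelial membrane proteins outside the list did fall: Thbd, thrombomodulin, from 27.9 to 19.6 (q = 0.0271 per the authors' deposited table) and Clec14a from 27.97 to 20.03 (q = 0.0342 per the authors' deposited table). They were named after their values were seen. The 4 endocardial genes had a median of -0.20, the 9 fibroblast genes -0.02 and the 7 pericyte and smooth muscle genes -0.13, with no call by the authors' test and 3 genes in all at an unadjusted p under 0.05. How far these shifts in cell markers bear on the lower matrix genes or on the higher muscle genes was not tested.

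**Figure D5:**
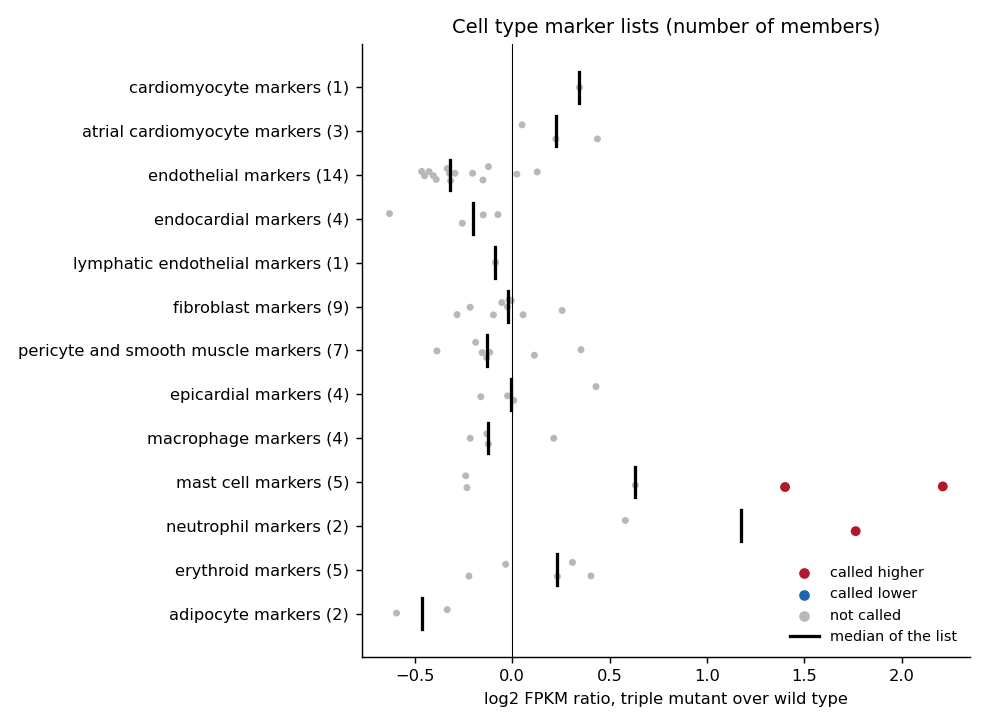
Log2 ratio of group FPKM, triple mutant over wild type, for the described markers of 13 cell type lists, with the number of genes in parentheses. Points are genes, coloured as called higher (red), called lower (blue) or not called (grey), and the black bar is the median of the list. The red points are Cpa3, Cma1 and S100a9, and 12 of 14 endothelial points lie left of 0.

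At the edge of the FPKM minimum, the called genes just inside were Gm4169 (5.22 to 2.32) and the B cell kinase gene Blk (3.10 to 5.70), and those just outside were Fmod, the matrix gene of fibromodulin (2.98 to 4.93), and the kinetochore gene Nuf2 (2.99 to 4.84).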

How the data were processed

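Ventricular RNA was freed of DNA with DNase I and entered a stranded total RNA kit, per the labels' protocols. The submitters' processing notes name STAR 2.5.2, Cuffdiff 2.2.1, Cufflinks 2.2.1, CASAVA 1.8 and mm9. Which annotation and which normalization options were used is not given in the sources used here.

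For each gene the authors deposited 1 FPKM value per group and, for each pair of groups, a log2 fold change, a test score (Cuffdiff's statistic), a p value and a q value. Recomputing showed that the deposited q value is Benjamini-Hochberg adjusted over all tested genes of the 3 comparisons as 1 family. FPKM is scaled to transcript length and library size, so depth, counts and the spread between the 2 wild type and the 3 triple mutant samples could not be computed, and no test of replicates was run here. The labels do not say whether the samples came from separate litters, or how many libraries entered the authors' test. In the sample descriptions a prefix takes 2 values, each found in every group, and it could enter no test.

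Fold changes were recomputed as ratios of FPKM. The call was a deposited q value under 0.05, whereas the authors' own mark falls at 0.1. Loci are printed as start plus 1. Gene type and transcript length came from GENCODE M21 by Ensembl ID, with 5177 of the 5257 genes matched. Promoters came from RefSeq on GRCm38.p6 by symbol, with chromosome 18 left out and 4017 genes matched. In them 6 motifs were searched in the 250 bases before the start. The q adjustment and the search for overlapping loci were tested on simulated data, and the other steps were not. Python 3.11.15, pandas 2.3.3, numpy 2.4.6, scipy 1.17.1 and matplotlib 3.10.9 were used.

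The genes described, 29 group lists and 17 cell type lists were chosen with earlier results of these data known. A rule named the 15 largest called rises and falls, up to 4 called genes and the 2 of highest FPKM in each list, the mutated genes and the called genes nearest the FPKM minimum. Genes named outside that rule, called or not, were chosen after their values were seen, and a few genes the rule names are not reported here. Alternatives changed the q threshold, the q adjustment, the FPKM minimum, a pseudocount of 1, the centring and the treatment of shared loci.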

Additional observations from a re-analysis of the deposited data

How the results depend on the processing

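The direction of calls held under every threshold tried, with more genes higher than lower, but the counts moved. At a q value under 0.1 there were 222 calls, 168 higher and 54 lower, and at a q value under 0.01 there were 53, 43 higher and 10 lower. With q values from the deposited statistic read as a normal deviate, an alternative added after the data were seen, 2 genes were called, 2 higher and 0 lower, although 95 genes higher and 24 lower had a statistic past 1.96 in size, against 564 and 297 with an unadjusted deposited p value under 0.05; the cause was not tested. The count stayed within 1.5 times of 133 with q adjusted within the comparison (118), an FPKM minimum of 10 (117), a minimum of 1 or none (147 each) and shared loci kept (180). Setting overlapping loci aside removed no gene. The 15 calls lost within the comparison included AI597468, Antxr2, Arcn1, Calr, Camk2a, Cby1, Cript, Gm12696, Lrrc4b, Pkm2, Ssr2, Tbx5, Tcf7l2 and Tmem218. A pseudocount of 1 and centring on the median of all genes cannot alter the deposited q values. A pseudocount cannot change a direction either, so it was no check of one. Centring reversed 1 of 120 named genes, the uncalled Nr3c1 (0.01 to -0.0083). Of 37 list medians, TGF-beta changed sign at a minimum of 1, with shared loci kept and with centring, the epicardial list at a minimum of 1, and the SRF and MRTF list with centring. With their sign kept, 8 medians moved by over 1.5 times at a minimum of 1, among them mast cell (0.63 to 1.40) and immediate early genes (0.08 to 0.13), 11 with shared loci kept, among them citric acid cycle (0.11 to 0.17) and trabeculation (-0.08 to -0.05), and 6 with centring, whose medians all lay within 0.06 of 0. No paired analysis was possible because the deposited table holds group values only, and leaving out each replicate was not run for the same reason.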

Other observations

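Further lists held few or no calls. Of 16 immediate early genes 9 stood higher with a median log2 ratio of 0.08, and the antiproliferative gene Btg2 rose from an FPKM of 30.5 to 43.3 (q = 0.0297 per the authors' deposited table). Among 8 circadian clock genes the median was -0.01, with Per1 at 9.33 and 13.3 and Clock at 27.0 and 24.5. The 6 interferon response genes had a median of 0.22, with Ifit2, an RNA-binding effector, at 14.4 and 19.1. In the axis of insulin-like growth factors and imprinted growth genes 4 of 11 stood higher (median -0.08), with Igf2bp2, a binding protein of Igf2 messenger RNA, at 9.90 and 15.9. Of 6 isoforms that mark maturing cardiomyocytes 3 stood higher (median 0.10, or 0.21 with shared loci kept), with the calcium-binding gene S100a1 at 206 and 268. None of the clock, interferon, growth or maturation genes was called by the authors' test, and 2, 1, 0 and 2 of them had an unadjusted p under 0.05.

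The remaining cell type lists gave no call by the authors' test either. The 5 erythroid genes had a median of 0.23 (0.10 at a minimum of 1 or with shared loci kept), with Hbb-b1, an adult beta globin, at 171 and 212 and Hba-a1, an adult alpha globin, at 139 and 119, and 1 had an unadjusted p under 0.05. Over all 12 erythroid markers 3 stood higher and 9 lower. The 4 epicardial genes had a median of -0.01, with Wt1 at 14.0 and 12.5 and Aldh1a2, which makes retinoic acid, at 12.6 and 17.0, and 1 had an unadjusted p under 0.05. The 3 atrial genes had a median of 0.22 (0.05 with shared loci kept) and the lymphatic marker Flt4 stood at 8.88 and 8.35, with 1 and 0 genes at an unadjusted p under 0.05. The adipocyte regulator Pparg stood at 6.22 and 4.12 and Fabp4 at 97.3 and 77.1, both with an unadjusted p under 0.05. No gene of the Schwann cell and neuron, skeletal muscle and lymphocyte lists reached the description, and over all their measured genes the sum of FPKM was 10.7 and 12.3 for the Schwann cell and neuron list. The skeletal muscle list summed to 306 and 389, nearly all of it from Ckm, which the heart also makes, at 305 and 388 in a shared locus.

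Other called genes in no list are given as single values, picked out after their values were seen. Magoh, a core protein of the exon junction complex, rose from 13.6 to 28.4 (2.09-fold, q = 0.0321 per the authors' deposited table). Snrpd3, a core protein of spliceosomal particles, rose from 6.98 to 13.7 and Supt4h1, a transcription elongation factor, from 9.06 to 16.2. Nop10, a small protein of RNA-guided pseudouridylation, rose from 25.6 to 41.6. These 4 genes stood at 17.0, 10.4, 11.3 and 35.8 in the double mutant. Further calls were Iigp1, an interferon-inducible GTPase (2.90 to 6.38), Trappc1, a vesicle tethering subunit (11.6 to 22.0, with 36.6 in the double mutant), Ppp5c, a chaperone-bound phosphatase (42.3 to 74.2), and Map2k6, a kinase upstream of p38 (5.93 to 10.3).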
